A study of Drosophila melanogaster with 3 samples.

Results

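The genes described here are 10 regulators of segmentation in the Drosophila melanogaster embryo: bcd, hb, Kr, kni, gt, tll, eve, ftz, odd and en. They were chosen by name, from 13945 protein-coding genes on the chromosomes that carry peaks, and each was examined over its body and 20 kb to either side. The data are chromatin immunoprecipitation sequencing (ChIP-seq) peak lists of putzig, a zinc finger protein known as a partner of the core promoter factor Trf2 and of the nucleosome remodelling complex NURF. The 3 biological replicates form 1 group, and no second condition was analysed. They are whole embryos of pooled sexes, 0 to 24 h old, from a transgenic line that stably expresses putzig with GFP at its C-terminus. The free-text descriptions call each library an input control, while the antibody field names putzig, and the libraries were read here as ChIP. The lists are 1 per replicate and 1 of the pooled replicates, each of 30000 entries that include background, and 1 of 6522 reproducible summits, of which 80.5% recurred among the strongest 6522 peaks of each replicate. All coordinates are on dm6.

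Segmentation genes work as a cascade. Maternal bcd forms a gradient of a homeodomain activator, gap genes answer it in broad domains, pair-rule genes turn those domains into stripes, and segment polarity genes such as en hold the segment borders. The bcd mRNA is made in the mother and placed in the egg, while the other 9 are transcribed in the embryo, in part of it and for a part of its development. By contrast, putzig partners such as Dref are known for promoters of broadly expressed genes. Because whole embryos of all stages were pooled, fewer bound cells and weaker binding per cell cannot be told apart in these lists.

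A summit, the highest position of a peak, was read as lying at a gene when it fell no more than 250 bp from a transcription start site (TSS) in the annotation. By this measure bcd was the single gene of the 10 with a reproducible summit (1 of 10), against 42.6% of all protein-coding genes. For hb, Kr, kni and ftz no list held a summit of any rank there (4 of 10), against 35.2% of all protein-coding genes. The other 5 had only weak summits outside the reproducible list. Most reproducible sites near the 10 genes belonged to neighbours' promoters, so sequences are shown for the bcd site, for unbound segmentation promoters and for bound neighbours. The bcd peak (chr3R:6759548-6759805, dm6) lay in intergenic DNA, and its interval ended short of the gene. The 201 bases around its summit, in the direction of bcd (chr3R:6759570-6759770, minus strand), held no match to any of 6 motifs searched on both strands.
bcd summit: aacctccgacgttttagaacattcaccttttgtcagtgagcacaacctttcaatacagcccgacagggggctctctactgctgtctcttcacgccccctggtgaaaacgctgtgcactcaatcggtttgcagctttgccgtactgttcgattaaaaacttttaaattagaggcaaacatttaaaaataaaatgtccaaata
The motifs were TATCGATA, the DNA replication-related element (DRE) bound by Dref, GGTCACAC (Motif 1), CGATA, which every DRE contains, CAGGTAG, the site of the early activator Zelda, GAGAGAG and TATAAAA. All sequences are from the RefSeq genome of the same assembly as the peaks.

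In the window from 250 bases before to 50 bases after the 5′ end of each of the 10 genes, DRE and Motif 1 matches numbered 0 of 10 each, against 9.37% and 7.71% of all protein-coding promoters. A count of 0 of 10 is close to these shares. CGATA was found in 1 of 10, at eve, against 47.5% of all promoters. CAGGTAG was found in 3 of 10, at gt, ftz and odd, against 1.64%, and GAGAGAG in 4 of 10, at hb, kni, tll and en, against 5.87%. TATAAAA was found in 2 of 10, at Kr and eve, against 24.2%. Internal starts were not in these counts, and those of hb and kni each held CAGGTAG. The next sequences are the 250 bases upstream of the 5′ ends of gt, odd and tll and of the internal, proximal start of hb. Motif matches on either strand are in capitals. Each of these stretches holds a match, so they do not show how common the motifs are.
gt (chrX:2428968-2429217, minus strand): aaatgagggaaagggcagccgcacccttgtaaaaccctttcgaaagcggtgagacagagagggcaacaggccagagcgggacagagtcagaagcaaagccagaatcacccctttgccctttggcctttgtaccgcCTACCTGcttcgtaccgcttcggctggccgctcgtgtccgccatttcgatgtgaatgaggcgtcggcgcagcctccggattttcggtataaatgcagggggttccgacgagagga
odd (chr2L:3606757-3607006, minus strand): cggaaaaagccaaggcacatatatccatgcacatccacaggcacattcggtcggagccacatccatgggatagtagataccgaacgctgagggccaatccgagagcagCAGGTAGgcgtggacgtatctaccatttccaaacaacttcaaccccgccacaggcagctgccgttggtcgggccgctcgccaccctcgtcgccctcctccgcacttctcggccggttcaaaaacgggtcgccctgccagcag
tll (chr3R:30852065-30852314, plus strand): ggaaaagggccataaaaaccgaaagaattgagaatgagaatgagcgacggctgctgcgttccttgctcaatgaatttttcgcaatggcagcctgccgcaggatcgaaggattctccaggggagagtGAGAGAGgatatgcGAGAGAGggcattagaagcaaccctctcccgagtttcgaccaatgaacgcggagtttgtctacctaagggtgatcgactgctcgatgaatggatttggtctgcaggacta
hb, internal start (chr3R:8694601-8694850, minus strand): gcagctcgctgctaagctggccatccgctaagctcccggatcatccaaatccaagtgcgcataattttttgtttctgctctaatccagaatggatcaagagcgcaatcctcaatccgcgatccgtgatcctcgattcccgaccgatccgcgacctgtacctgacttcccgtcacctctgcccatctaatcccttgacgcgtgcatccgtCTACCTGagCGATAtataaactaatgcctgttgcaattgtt
Counted from the TSS, with negative positions upstream, the CAGGTAG match began at -115 in gt, on the opposite strand, and at -142 in odd. The tll stretch held 2 matches of GAGAGAG, at -124 and -110. The hb stretch held CAGGTAG on the opposite strand at -41 and CGATA at -32. Beside these stand 4 of the 15 bound neighbours, as the 100 bases upstream of their 5′ ends. They were picked after the data were seen, each holds a match, and they do not show how common the motifs are.
mRpL19, beside hb (chr3R:8674009-8674108, plus strand): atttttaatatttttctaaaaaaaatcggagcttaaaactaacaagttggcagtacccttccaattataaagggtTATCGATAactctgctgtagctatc
TMEM216, beside hb (chr3R:8716143-8716242, plus strand): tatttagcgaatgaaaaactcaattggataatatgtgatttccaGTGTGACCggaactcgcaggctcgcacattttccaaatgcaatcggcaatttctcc
tko, beside gt (chrX:2443977-2444076, minus strand): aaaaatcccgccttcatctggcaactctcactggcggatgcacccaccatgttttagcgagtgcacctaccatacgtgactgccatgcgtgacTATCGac
Ugt36A1, beside odd (chr2L:3618997-3619096, plus strand): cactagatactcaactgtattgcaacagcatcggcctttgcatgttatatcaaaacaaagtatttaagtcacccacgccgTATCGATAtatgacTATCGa
The mRpL19 and Ugt36A1 stretches held a DRE each, the TMEM216 stretch held Motif 1 and the tko stretch held CGATA, both on the opposite strand. A further CGATA stood on the opposite strand in the Ugt36A1 stretch. The Ugt36A1 summit itself lay downstream of this 5′ end, 86 bp upstream of another start of the gene. The 16 reproducible summits found around the 10 genes were searched over 100 bp to each side. A DRE was in 2, against 14.5% of all 6522 reproducible summits, and Motif 1 in 1, against 12.7%. The summits with a DRE were that of mRpL19 and the one shared by z and boi beside gt. The DRE of the Ugt36A1 stretch lay outside the window of its summit. CGATA was in 8 of the 16, against 51.6% of all summits. These 3 counts are near their backgrounds. TATAAAA was in 1, at TMEM216, against 11.6%. CAGGTAG and GAGAGAG were in none of the 16, against 0.690% and 3.43% of all summits. With 200 bp to each side CAGGTAG was in 1 of the 16, against 1.49%, and GAGAGAG still in none, against 6.56%. Matches describe letters in these windows and do not show that a factor sat there.

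Putzig at bcd (FBgn0000166, chr3R:6755842-6759466, minus strand) was weak but recurred in every replicate. The pooled summit stood 204 bp upstream of the TSS with a deposited signal of 540, rank 4771 of 6522 in the reproducible list, whose median signal was 1077 and lowest 235. In replicates 1, 2 and 3 the best summit lay at -178, -199 and -199 bp from the TSS, with signals of 191, 236 and 97.4. Each replicate has its own signal scale, so ranks are compared: these summits ranked 5222, 4811 and 4428 of 30000 entries, strongest first. All 3 were therefore inside the strongest 6522 of their list, in its weaker part. Of the 7802 protein-coding genes with a pooled summit of any strength at a TSS, 66.6% had a stronger one than bcd, and the mitochondrial ribosomal protein gene mRpS7 (rank 4770) and CG31549 (rank 4773) stood next to it in that order. No other annotated gene had a TSS within 250 bp of the bcd summit. The distance matters for this call, because with a window of 100 bp none of the 10 genes was bound, against 35.0% of protein-coding genes. By a stricter reading, in which the TSS itself lies inside a reproducible peak interval, the count was also 0 of 10, against 41.7%.

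The gap genes hb, Kr, kni, gt and tll encode transcription factors that divide the trunk and the termini of the early embryo. They are hb (FBgn0001180, chr3R:8690980-8697822, minus strand), which is also supplied maternally, Kr (FBgn0001325, chr2R:25226611-25231394, plus strand), kni (FBgn0001320, chr3L:20692330-20695378, minus strand), gt (FBgn0001150, chrX:2427113-2428967, minus strand) and tll (FBgn0003720, chr3R:30852315-30854400, plus strand). None had a reproducible summit at a start. For hb, Kr and kni no summit of any rank lay within 250 bp of any TSS in the pooled list or in a replicate, although each of these 4 lists holds 30000 entries that include background. The start of gt was reached in replicate 2 alone, 16 bp downstream of the TSS, at rank 29159 with a q value of 0.454. The start of tll was reached in replicate 1 alone, 69 bp upstream, at rank 15503 with a q value of 0.359. Both ranks fall in the part of these lists that is background by its q value. The closest pooled summit to hb stood 955 bp downstream of its internal start in the coding exon, at rank 28779 and with a q value of 0.649.

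The pair-rule genes eve, ftz and odd are homeodomain or zinc finger regulators expressed in stripes. They are eve (FBgn0000606, chr2R:9979319-9980795, plus strand), ftz (FBgn0001077, chr3R:6864324-6866244, plus strand) and odd (FBgn0002985, chr2L:3604224-3606756, minus strand). At ftz no summit of any list was found at the TSS. At eve replicate 2 alone had one, 22 bp downstream at rank 24285 with a q value of 0.292. For odd the pooled list held a summit 29 bp upstream with a signal of 76.3 at rank 13661, and a counterpart in replicate 3 alone, where a summit 5 bp upstream had a signal of 46.2, rank 6484 and a q value of 0.0101. That rank is just inside the strongest 6522 of replicate 3, while replicates 1 and 2 had no summit at odd at all. So replicate 3 alone raised the count from bcd to 2 genes of 10, against 41.7% of protein-coding genes in that replicate. In replicates 1 and 2 the count was 1 of 10, against 42.4% and 42.3%.

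The homeodomain gene en (FBgn0000577, chr2R:11524006-11528210, minus strand), a segment polarity gene set among these regulators, showed the most regular weak signal of the 9 genes without a reproducible summit. It had a summit at its start in the pooled list, 37 bp upstream with a signal of 89.8, and in every replicate. Those of replicates 1, 2 and 3 lay 203, 63 and 62 bp upstream, at ranks 14162, 11121 and 18424. Their q values were 0.295, 0.00148 and 0.385, and the pooled one was 0.0945. Replicate 2 alone was low in q, and replicate 2 also has the most entries with a q value of 0.05 or less, 15916, against 9150 and 7788 in replicates 1 and 3. Across the genome 47.0% of protein-coding genes had a summit of some rank at a TSS in all 3 replicates, and among the 10 genes 2 did, bcd and en. In the pooled list 3 of the 10 had one at any rank (bcd, odd and en), against 55.9% of protein-coding genes. In replicates 1, 2 and 3 taken singly 3, 4 and 3 of the 10 did, against 54.6%, 56.7% and 54.0%.

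**Figure D1:**
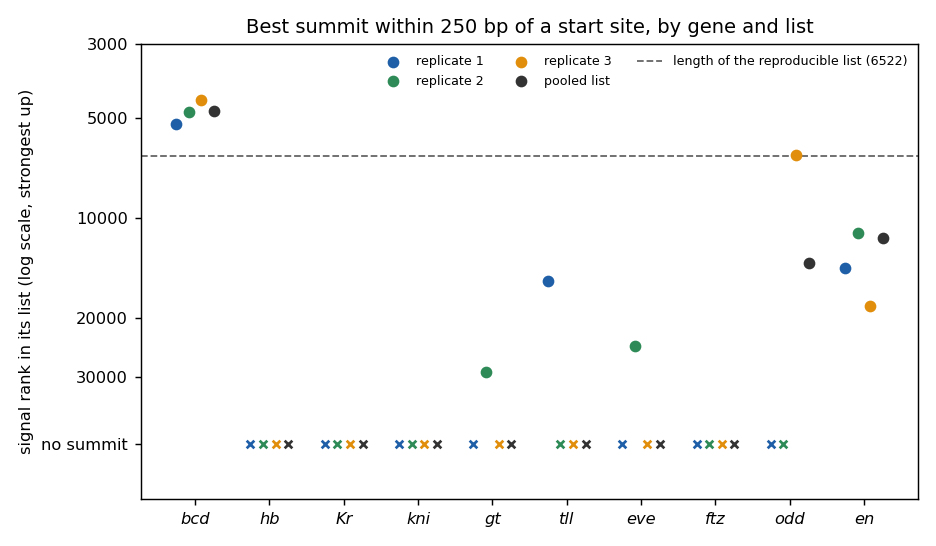
Signal rank of the best summit within 250 bp of a start site for each gene, in replicates 1 to 3 and in the pooled list (log axis, strongest at the top). Crosses mark lists without a summit there, and the dashed line is rank 6522. The bcd points lie between 4428 and 5222 in all lists, odd touches the line in replicate 3 alone, and hb, Kr, kni and ftz have crosses only.

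Reproducible putzig sites were far from most of these genes. The median distance from the closest TSS to the nearest reproducible summit was 22.2 kb for the 10 genes and 1.20 kb for all protein-coding genes. It exceeded 20 kb for 5 of the 10, Kr, kni, tll, ftz and en, against 18.7% of protein-coding genes. The distances were 26.6 kb at Kr, 74.2 kb at kni, 36.8 kb at tll, 48.1 kb at ftz and 65.5 kb at en. They were 6.47 kb at eve, 9.26 kb at gt, 12.4 kb at odd and 17.7 kb at hb. Measured against all protein-coding genes, 3.46% were farther from a reproducible summit than kni and 4.55% farther than en, while 58.8% were farther than bcd. For en and ftz even these distant sites were weak, with signals of 294 in an intron of tou and 255 in an intron of the Hox gene Antp. The site nearest to tll was strong, with a signal of 5345 at rank 151, and those nearest to Kr and kni had signals of 1997 and 1530. To the nearest pooled summit of any rank the median distance was 6.59 kb for the 10 genes and 0.155 kb for all protein-coding genes. Those of Kr and kni, at 26.6 and 35.8 kb, were beyond their spans as well.

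The genes also stand apart from other genes: the closest TSS of another protein-coding gene was a median of 13.3 kb away, against 1.38 kb for all protein-coding genes, and ranged from 3.11 kb at gt to 52.2 kb at en. This spacing goes with the share of genes bound. Of the 3698 protein-coding genes at least as far from the next coding TSS as gt, the least isolated of the 10, 21.4% were bound, and of the 652 at least as far as the median of the 10, 13.0%. The 1 of 10 seen here is low beside all protein-coding genes and close to the share of genes of like spacing. This comparison was added after the values were seen. How much of the low count goes with spacing, and how much with the genes themselves, was not tested.

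**Figure D2:**
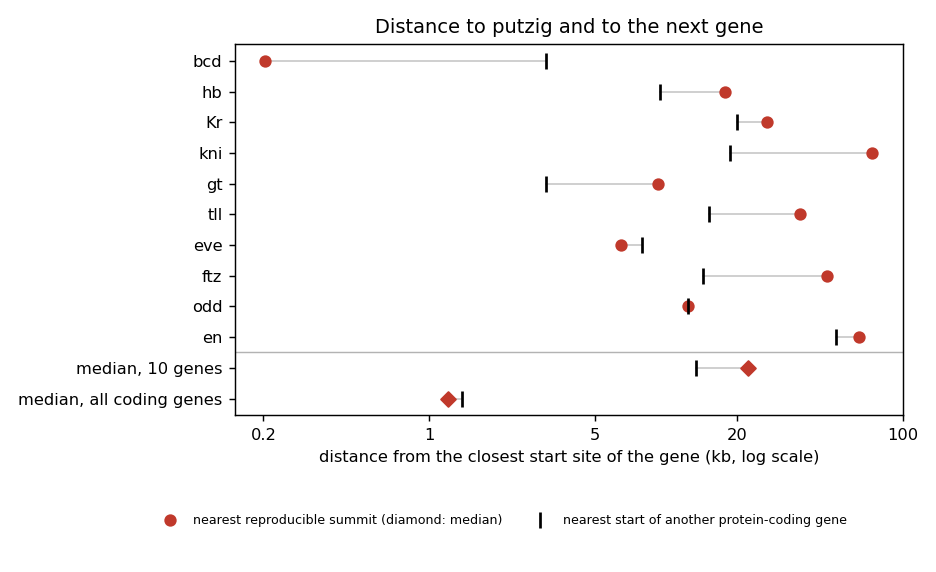
Distance from each gene's closest start site to the nearest reproducible putzig summit (red points, diamonds for medians) and to the nearest start of another protein-coding gene (black ticks), on a log axis in kb. The red point lies at 0.204 kb for bcd and at 6.47 kb or more for the other 9 genes, with medians of 22.2 kb for the 10 genes and 1.20 kb for all protein-coding genes.

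The 10 spans held 16 reproducible summits in 432 kb, 3.70 per 100 kb, against 4.87 per 100 kb over the covered chromosomes, at a like density of coding genes (10.2 and 10.4 per 100 kb). Of the 16, 13 lay at the TSS of a protein-coding neighbour, 1 at the TSS of a non-coding gene, 1 at bcd and 1 away from any TSS. The eve span held 7, hb 4, gt 3, and bcd and odd 1 each, and the spans of Kr, kni, tll, ftz and en had none. Of the 34 protein-coding neighbours with a TSS in a span, 15 were bound (44.1%, against 42.6% of all protein-coding genes), and this share is at the background. In the strongest peaks of replicates 1, 2 and 3 the number was 15, 15 and 13. The spans were unlike: 14 of 21 neighbours were bound around hb, gt and eve, and 1 of 13 around the other 7 genes. This grouping was made after the values were seen.

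**Figure D3:**
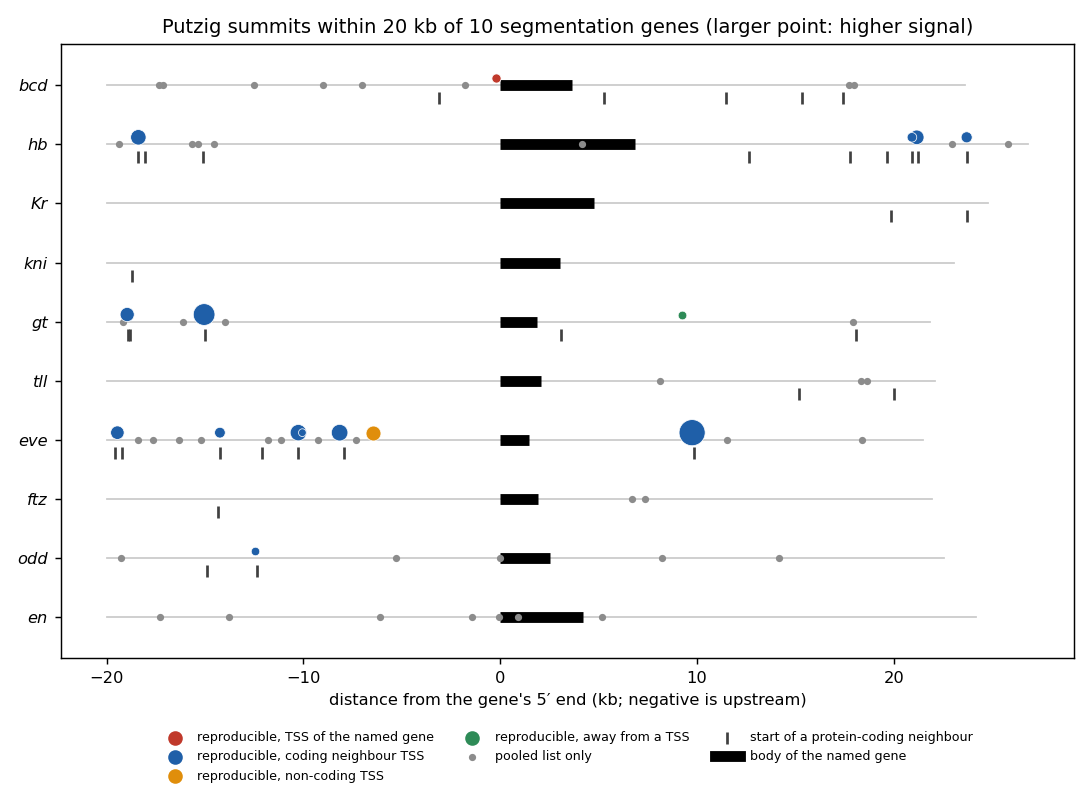
Summits within 20 kb of the 10 genes, by distance from each gene's 5′ end in kb with upstream to the left. Black bars are the gene bodies, coloured points the reproducible summits with area growing with signal, and ticks the starts of protein-coding neighbours. Grey points (pooled list only in the key) are pooled summits outside the reproducible list, whether or not a replicate holds them too. Most coloured points around hb, gt and eve sit over neighbours' ticks, with the largest at 9.75 kb in the eve row. The points at 9.26 kb in the gt row and at -6.47 kb in the eve row do not.

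Around eve, putzig marked the genes on both sides. Of 7 coding neighbours 6 were bound, eIF3j, Pdrg1, CG1418, CG12134, Pal1 and TER94, and CG12133 was not. The summit of TER94, the fly counterpart of the ATPase p97/VCP, stood 86 bp upstream of its TSS and 9.75 kb downstream of the eve start, with a signal of 7870. It was rank 41 of the reproducible list, and 39, 42 and 37 in replicates 1, 2 and 3. The summits of CG12134 (signal 2899) and of the translation initiation factor gene eIF3j (2793) ranked 838 and 900. Pdrg1 and Pal1, which encodes a peptide-amidating enzyme, start close together in opposite directions and shared 1 summit with a signal of 1758. Non-coding genes with a TSS in the 10 spans numbered 17, of which 2 were bound (11.8%, against 4.95% of all genes that are not protein-coding), both beside eve: asRNA:CR46453, and lncRNA:CR45324, which shares the TER94 summit. The closest reproducible summit to eve was 6.47 kb upstream, 93 bp upstream of the non-coding gene asRNA:CR46453, with a signal of 2254 and ranks of 1360, 1437 and 1216 in the replicates. Every summit of this span but 1, a second and weaker one at eIF3j with a signal of 258, lay inside a strongest peak of all 3 replicates. The eve promoter had no reproducible summit.

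Around gt, tko, boi and z were bound, and CG12496 and CG32797 were not. For tko, which encodes a mitochondrial ribosomal protein, the summit was at -38 bp from the TSS and at -15.0 kb from gt. Its signal was 5284, rank 158, with ranks of 178, 171 and 118 in the replicates. The Hedgehog co-receptor gene boi and zeste (z), a DNA-binding protein known from transvection, share a summit with a signal of 1969 (chrX:2447612-2448327) that lay in the 5′ UTR of z. The remaining summit of this span (chrX:2419626-2419810) was the single reproducible one of the 16 away from every TSS, 9.26 kb downstream of the gt start in intergenic DNA. Its signal was 446, against a median of 428 for all reproducible summits away from a TSS, and its ranks were 5157, 5235 and 5906 in the replicates. The closest annotated TSS, that of CG32797, was 6150 bp away.

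Around hb, 5 of 9 coding neighbours were bound, mRpL19, Unc50, CG8043, CG11755 and TMEM216. The summit 32 bp upstream of TMEM216, a gene of the ciliary transition zone, had a signal of 2439 (rank 1188) and lay in an intron of Cks85A, a gene of a cyclin-dependent kinase subunit that was itself called unbound. Unc50 had a signal of 2119 and the mitochondrial ribosomal protein gene mRpL19 one of 1013. CG8043 and CG11755 share a start and a summit with a signal of 656 in the same interval as that of Unc50 (chr3R:8676401-8677016). That summit ranked 3416 and 3311 in replicates 1 and 2 and 7501 in replicate 3, outside its strongest 6522, and these 2 genes are the ones missing from the count of 13 in replicate 3.

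The remaining spans were nearly empty of reproducible putzig. The bcd span lies in the Antennapedia complex, where the neighbours Ama, zen, zen2, pb and CG34297 were all unbound, as was the Hox gene Scr next to ftz. The neighbours of Kr (CG30429 and Jhbp10), kni (CG34260) and tll (CG15545 and the cuticle gene Cpr100A) were unbound too. Around odd, the glycosyltransferase gene Ugt36A1 was bound with a signal of 412, ranks 5106, 5917 and 5601 at its TSSs in the replicates, and CG15418 was not. The en span holds no other protein-coding TSS. Over all spans the 15 bound neighbours had a median signal of 1969, against 1517 for all 5939 bound protein-coding genes.

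Below the reproducible threshold, the pooled list held 46 more summits in the spans, 3 of them with a q value of 0.05 or less and 5 at a TSS. The lowest q value of these 46 belonged to a summit 18.4 kb downstream of the tll start (chr3R:30870462-30870885), with a signal of 161 at rank 7705 and a q value of 0.00175. It was found at ranks 8610, 7724 and 9456 in the replicates and lay 1677 bp downstream of the CG15545 start. The other 2 were at -6999 and -9025 bp from the bcd start, in an exon of lncRNA:CR44930 and an intron of lncRNA:CR42721, with q values of 0.0186 and 0.0159. The first of these had a summit in all 3 replicates, and the second had none in replicate 3. The Kr and kni spans held no pooled summit, and ftz held 2, both of them found in replicate 1 alone. The replicates' own lists placed 2, 0 and 0 summits in the Kr span and 5, 1 and 1 in the kni span, in the order of replicates 1 to 3.

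Bound shares of the wider segmentation network were counted by role, with no test between roles. Of 48 genes, the 10 included, 11 were bound (22.9%, against 42.6% of all protein-coding genes). None of 10 gap and head gap genes, 9 pair-rule genes and 10 segment polarity genes was bound, 0 of 29 in all. All 29 are at least as far from the next coding TSS as gt, the class in which 21.4% of genes were bound. Their median spacing was 13.9 kb, and of protein-coding genes 13.3 kb or more from the next coding TSS 13.0% were bound. Gene by gene, 13 of the 29 had a pooled summit of some rank at a TSS, against 55.9% of protein-coding genes. The strongest was that of the segment polarity regulator ci, with a signal of 231 at rank 6569, just past the 6522 of the reproducible list. It counted among the strongest peaks of replicate 1 and not of replicates 2 and 3. The next were the pair-rule repressor hairy (hry) at rank 8034 and the segment polarity gene nkd, an inhibitor of Wnt signalling, at rank 8425.

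Among 11 maternal genes 5 were bound (45.5%, a share near the 42.6% of all protein-coding genes): bcd, pum, stau, exu and swa. The RNA-binding protein genes pum and stau, whose products act on maternal mRNAs, had signals of 1921 and 1873 at summits 42 and 51 bp upstream. Those of exu (2613) and swa (1505), both needed to place bcd mRNA in the oocyte, are also within 250 bp of starts of galla-1 and Marf, so the peak cannot be assigned to 1 gene of the pair. By signal bcd was the lowest of these 5. The 6 unbound maternal genes were cad, nanos, osk, tor, trk and tsl. Of these, cad had a pooled summit at a TSS with a signal of 175 at rank 7389. It counted among the strongest peaks of replicate 3 and not of replicates 1 and 2. In replicate 3 the maternal count was thus 6 of 11, against 41.7% of all protein-coding genes. The nearest reproducible summits to nanos and tor stood 0.370 and 0.372 kb from a TSS, outside the window. Of 8 activators and cofactors of segmentation genes, 6 were bound (75.0%, against 42.6% of all protein-coding genes): Trl (413), CtBP (1083), gro (4900), Stat92E (1714), ftz-f1 (3012) and lilli (2326), with the signal in brackets. The lilli summit is also at a start of NTPase and the ftz-f1 summit at one of lncRNA:CR45939, so these peaks cannot be assigned to 1 gene either. The pioneer activator gene zld was unbound, with its nearest reproducible summit 20.8 kb away. HDAC1 (Rpd3) was unbound too, with one at 0.322 kb, but counted among the strongest peaks of replicate 3 alone. The median spacing from the next coding TSS was 2.27 kb for the maternal genes and 1.02 kb for the activators and cofactors. Role and spacing thus move together here and were not told apart. The number of annotated TSSs also differs, from 4 each at Trl, gro and lilli to 1 at HDAC1, and its part was not tested. With each summit given to its nearest TSS alone, 8 genes of the wider list were bound, against 36.1% of all protein-coding genes.

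**Figure D4:**
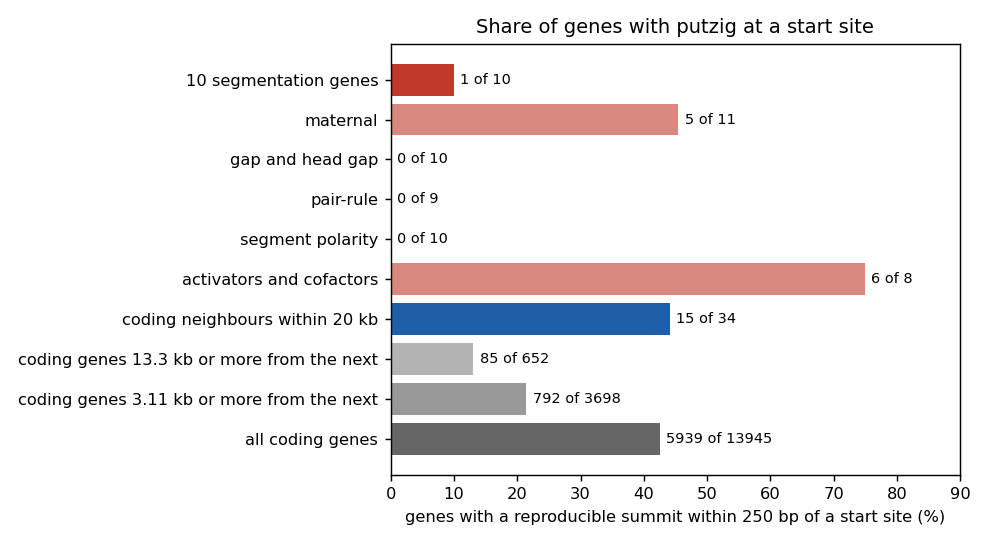
Percentage of genes with a reproducible summit within 250 bp of a start site, with counts beside the bars. The red bar is the 10 genes (1 of 10), the pale bars are roles of the wider list of 48 genes, which includes the 10, the blue bar is their coding neighbours (15 of 34), and the grey bars are all coding genes (42.6%) and those 3.11 kb (21.4%) or 13.3 kb (13.0%) or more from the next coding start.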

How the data were processed

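Peak lists of putzig ChIP-seq from 3 replicates were analysed: 1 list per replicate, 1 of the pooled replicates (30000 entries each, background included) and 1 of 6522 reproducible peaks thresholded by the irreproducible discovery rate, which are the 6522 strongest of the pooled list. Per the deposited notes the peaks derive from each alignment and a shared control alignment, on dm6. No source used here names the aligner or the peak caller. The signal values are the authors' deposited peak signal, on a scale that is not named, and are compared only within a list. The deposited −log10 q value is 4.12 in all reproducible peaks, so it ranks none of them. Sequencing depth is unknown, and precision rests on the replicates.

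Summits were matched to TSSs of Ensembl release 115 (transposable elements left out). All 10 genes have the same coordinates in RefSeq, and no peak passed a chromosome end. Each replicate's strongest 6522 peaks served as its calls. All results are counts and values: with 1 group there is no contrast, and no test was run. The genes, the wider list and the motifs were chosen with earlier results of these data known. Named are the 10 genes, every bound coding neighbour, and the bound genes of the wider list. Unbound neighbours and the unbound genes of the wider list that are named with values, among them ci, hry and nkd, were chosen after their values were seen. All 48 listed symbols matched, 3 through newer symbols. The assignment of summits was tested on simulated data. Alternatives covered the TSS window and assignment, the peak set, the span and the motif window. Analysis used Python 3.11.15, pandas 2.3.3 and numpy 2.4.6.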

Additional observations from a re-analysis of the deposited data

How the results depend on the processing

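Of 47 recomputed values, from the same few settings applied to several counts, 34 stayed within 1.5 times the reported count and 13 moved further. The number of the 10 genes bound, 1, became 0 with a TSS window of 100 bp and 0 among peaks above the median signal (35.0% and 28.3% of all protein-coding genes), and 3 (bcd, odd and en) in the whole pooled list (55.9%). With all entries of a replicate it was 3, 4 and 3 in replicates 1, 2 and 3, against 1, 1 and 2 among the strongest peaks. The 15 bound neighbours became 2 with 10 kb and 37 with 50 kb to each side, by construction, as the spans then hold 7 and 79 coding neighbours (28.6% and 46.8% bound). The 16 reproducible summits in the spans became 9 above the median signal, 62 in the pooled list, and 5 and 47 with 10 and 50 kb. The 11 bound genes of the 48 in the wider list became 7 with 100 bp, against 35.0% of all protein-coding genes, and 25 in the pooled list, against 55.9%. In the pooled list, background entries included, the wider list was thus near the share of all genes. Leaving out each replicate in turn gave 1 of the 10 genes every time, 13 to 15 neighbours, 11 genes of the wider list and 14 to 16 summits. The pooled list contains the reads of all replicates, so leaving one out changes the filter and not the calling. No paired analysis was possible because the samples form 1 group. Depth per library is unknown, and what a deeper library would add at weak sites such as odd, en and ci cannot be told from these lists.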
